A study of Mus musculus with 37 samples.

Results

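Nnt, Disc1 and Glo1 are genes in which C57 substrains or 129 mice are known to carry variants, and they were followed here array by array in mouse temporal lobe. The members were all probe sets whose only annotated symbol was one of the 3 genes, which gave 7 of 45101 probe sets. Of the 3 genes, 2 were measured, among 18193 genes named alone by a probe set. Nnt had 3 probe sets and Glo1 had 4. For Disc1 no probe set carried the single symbol in the annotation used here, so Disc1 itself has no value below. The questions were what level each gene had in each strain and genotype, and whether the C57 arrays fell into separate levels.

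The study compared temporal lobes of mice lacking Wfs1 (KO) with those of wild-type mice (WT) in 2 strains, on Affymetrix mouse expression arrays. There were 10 arrays of 129 KO, 9 of 129 WT, 9 of C57 KO and 9 of C57 WT. The sample labels write the strains as 129SV and C57, and the series text gives the backgrounds as 129S6 and C57B6. No substrain, age, sex, litter or knockout construct is named in the labels, and nothing states that each array is a separate animal. The p-values therefore cover the spread between these samples, which may be technical. Arrays are called by the number in their title. Wfs1, the deleted gene, lay between 2.64 and 3.60 in all KO arrays and between 9.11 and 9.73 in all WT arrays (log2 signal, probe set 1448411_at), so every array went with its genotype label.

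Signals are the deposited normalized log2 values, on which a difference of 1 is a 2-fold difference in signal. The mean of the 6 neuron markers was 10.14 to 10.74 in all arrays, and the mean of the 6 choroid plexus markers was 3.47 to 5.91. Over both genotypes, 3 of 6 microglia, 2 of 5 oligodendrocyte and 1 of 6 astrocyte markers were lower in 129 at a limma adjusted p under 0.05. Of all genes tested, 4.14% were. Within KO or WT alone, 0 of these markers passed between strains. Striatum markers averaged 8.31 in C57 KO and 8.78 in C57 WT. All 8 measured were lower in C57 KO at an unadjusted p under 0.05, and 0 passed the adjusted threshold. Over all probe sets, 1556 of 27647 had an unadjusted limma p under 0.05 in that comparison, and 0.105% passed the adjusted threshold. Actin control probes at the 3' end exceeded those at the 5' end, a measure of RNA degradation, by 0.91 to 1.94 in every array except 129 WT array 73, which had 2.76. The arrays also fell into 2 unlabelled sets of 19 and 18, each with arrays of all 4 groups, and set 1 held the lower sample numbers of each group.

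Nnt encodes nicotinamide nucleotide transhydrogenase, a proton-driven enzyme of the inner mitochondrial membrane that makes NADPH for the detoxification of peroxides. The C57BL/6J substrain is known to lack exons of this gene, while C57BL/6N carries the intact gene. Glo1 encodes glyoxalase 1, the first enzyme of the pathway that clears methylglyoxal, a reactive by-product of glycolysis, and some inbred mouse strains carry a duplicated segment with an extra copy of it. Disc1 encodes a scaffold protein of the centrosome and of neuronal development, and 129 strains are known to carry a small deletion in it.

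Glo1 was the gene whose signal varied among the C57 arrays. On probe set 1424108_at its lowest, median and highest signals were 8.89, 9.08 and 9.39 in 129 KO. They were 8.97, 9.07 and 9.14 in 129 WT. In C57 KO they were 8.14, 8.80 and 9.06, and in C57 WT 7.99, 8.92 and 9.20. The arrays of 129 were thus close together and high, and the C57 arrays reached from the same height to about 1 log2 unit lower in both genotypes.

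The 4 lowest signals on this probe set were all from C57. They were 7.99 in C57 WT array 33, 8.14 in C57 KO array 10, 8.14 in C57 KO array 8 and 8.18 in C57 KO array 2. The next value was 8.56 in C57 WT array 34, so the lowest 4 were set off by 0.38 log2 units. Of the 18 C57 arrays, 8 lay within the range of the 129 arrays and 10 lay below it. Over all 27647 probe sets tested, the median number of C57 arrays outside the 129 range was 1, and 2.84% of probe sets had at least 10 outside.

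The brightest Glo1 probe set, 1451240_a_at, put the same arrays at the bottom. Its lowest, median and highest signals were 8.78, 9.14 and 9.36 in 129 KO and 9.01, 9.10 and 9.42 in 129 WT. In C57 KO they were 7.95, 8.77 and 9.18, and in C57 WT 7.90, 8.99 and 9.17. Arrays 33, 8, 10 and 2 had 7.90, 7.95, 8.00 and 8.02, and a gap of 0.47 separated them from the next array, C57 WT array 34 at 8.49. Here 9 C57 arrays lay below every array of 129, and all 9 were among the 10 that lay below on 1424108_at.

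The other 2 Glo1 probe sets gave a similar order with more scatter. On 1436070_at the lowest, median and highest signals were 7.27, 7.68 and 7.79 in 129 KO, and 7.58, 7.69 and 7.78 in 129 WT. They were 6.57, 7.47 and 7.69 in C57 KO and 6.92, 7.33 and 7.83 in C57 WT. The 5 lowest arrays were C57 arrays 10, 8, 33, 34 and 2. On 1424109_a_at they were 8.35, 8.49 and 9.18 in 129 KO, and 7.70, 8.55 and 8.81 in 129 WT. They were 7.06, 8.28 and 8.65 in C57 KO and 7.81, 8.39 and 8.72 in C57 WT. Arrays 10, 2, 8 and 33 were again among the lowest 5, but 129 WT array 73, the array with the highest actin difference, lay among them at 7.70.

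**Figure D1:**
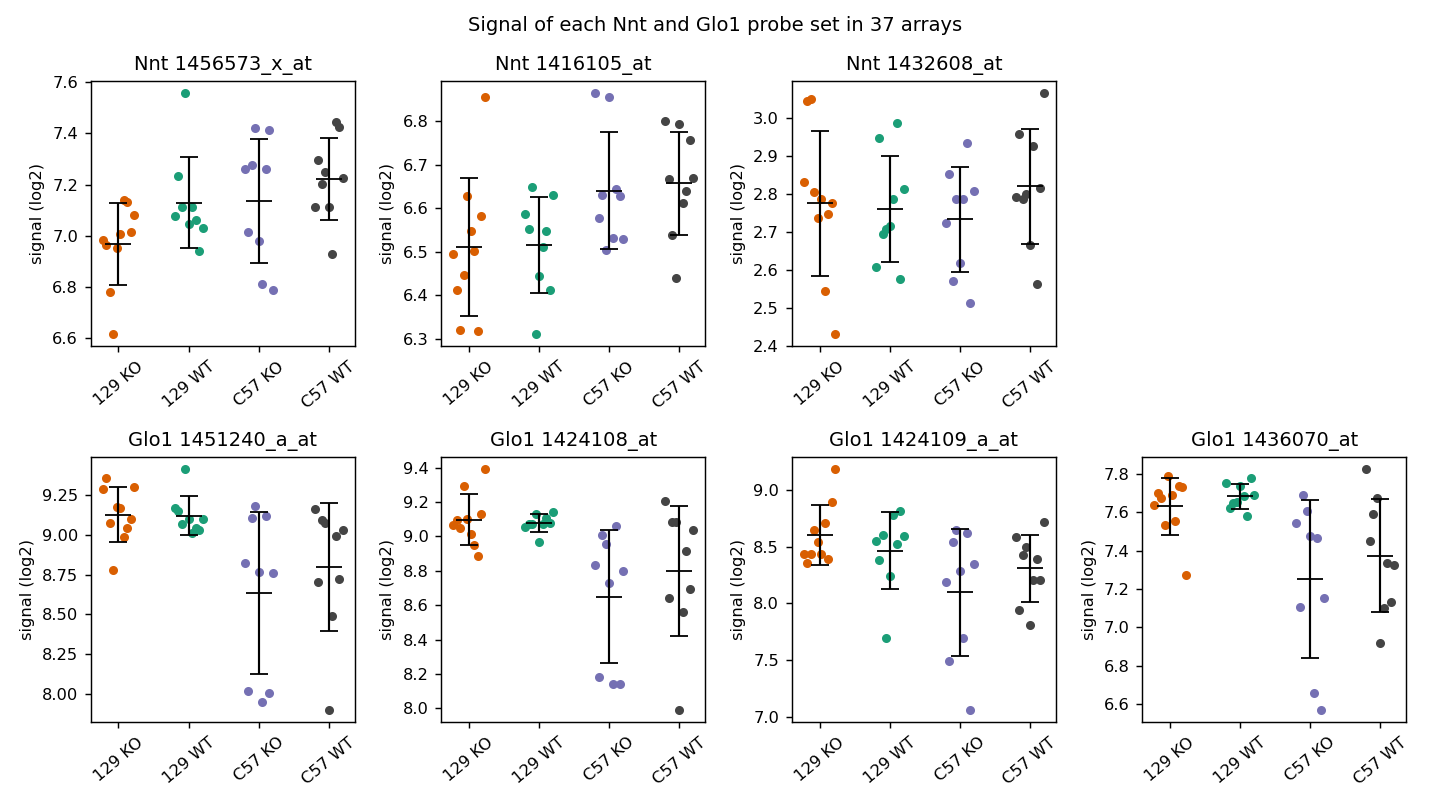
Deposited log2 signal (vertical axes, not starting at 0) of each Nnt and Glo1 probe set in 10 129 KO, 9 129 WT, 9 C57 KO and 9 C57 WT arrays. Points are arrays, in order of sample number within a group, and black bars are the mean ± SD. In the lower panels the C57 arrays reach further down than the 129 arrays, to 7.99 on 1424108_at, while the Nnt panels show no C57 array set apart below the others.

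The largest gap among the C57 arrays was 0.38 on 1424108_at and 0.47 on 1451240_a_at. It was 0.26 on 1436070_at, above arrays 10 and 8, and 0.24 on 1424109_a_at, above 5 arrays. Of all probe sets tested, 3.53% had a gap of at least 0.3. All 4 Glo1 gaps were under the size set for separate levels. That rule asked for a gap of at least 1.0 with at least 2 arrays on each side. By that rule 0 of the 6 member probe sets tested had separate levels among the C57 arrays, against 0.38% of all probe sets tested, and at a gap of 0.5 the counts were 0 and 1.18%. The rule could decide little here. The whole C57 range was 0.42 and 0.66 on the Nnt probe sets tested, so a gap of 1.0 was out of reach. On Glo1 that range was 1.21 to 1.65, so a gap of 1.0 would have had to take up most of it. The count of 0 thus does not show that Glo1 lacked levels. The spread itself was wider in C57. The SD of the C57 arrays was 7.56 times that of 129 in WT and 2.55 times in KO on 1424108_at, 3.30 and 2.96 times on 1451240_a_at, and 4.59 and 2.75 times on 1436070_at. On 1424109_a_at it was 0.88 times in WT and 2.11 times in KO. Of all probe sets tested, 1.12% had at least 2 times the SD of 129 in both genotypes, and 3 of the 4 Glo1 probe sets did.

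The 4 Glo1 probe sets went up and down together among C57 arrays and not among 129 arrays. With group means removed, Pearson's r between pairs of them was 0.79 to 0.99 over the 18 C57 arrays, and -0.66 to 0.41 over the 19 arrays of 129. Against 1451240_a_at, r was 0.99 for 1424108_at, 0.90 for 1424109_a_at and 0.88 for 1436070_at. With arrays 33 and 8, the farthest from the median, left out, these were 0.98, 0.93 and 0.83. Within the 9 C57 arrays of set 1 they were 0.97, 0.98 and 0.94, and within the 9 of set 2 they were 1.00, 0.89 and 0.94. These values describe the arrays, since probe sets of a gene share its RNA and each array's labelling. Of the 4 lowest arrays, array 2 was in set 1 and arrays 8, 10 and 33 were in set 2, and their actin differences were 1.52, 1.22, 1.94 and 1.03. The part of array set and RNA quality in the low signals was not tested beyond these values.

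Group means of Glo1 were higher in 129 than in C57 on all 4 probe sets. On 1424108_at the mean was 9.10 ± 0.15 in 129 KO (SD, n = 10) and 8.65 ± 0.38 in C57 KO (SD, n = 9). The difference was 0.45 (SE 0.12, 1.36-fold, 95% interval 0.20 to 0.70), and it passed the threshold with a limma adjusted p of 0.0302. This was the only one of the 6 member probe sets tested that was called in 129 KO against C57 KO, where 3.43% of all probe sets were called. The other 3 Glo1 probe sets differed by 0.38 to 0.50, with limma adjusted p of 0.0564 to 0.0898. Leaving out 1 array changed the call. The limma adjusted p of 1424108_at was 0.0773 without C57 KO array 2, 0.0732 without array 8 and 0.0788 without array 10, all among the lowest 4 arrays, and 0 members were then called. It was 0.0537 without 129 KO array 53 and 0.0513 without 129 KO array 59. The other 3 were called in some of these fits, at adjusted p of 0.0259 to 0.0494. This held for 1451240_a_at without 129 KO array 53, C57 KO array 3, 5 or 9, or C57 WT array 33. It held for 1436070_at without 129 KO array 59 or C57 KO array 1, 3 or 5, and for 1424109_a_at without C57 KO array 5 or 9. All 4 Glo1 probe sets were called without C57 KO array 5.

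Between the WT groups the Glo1 difference had the same sign and did not pass. The mean on 1424108_at was 9.08 ± 0.05 in 129 WT and 8.80 ± 0.38 in C57 WT (SD, n = 9 each). The difference was 0.28 (SE 0.13), with a limma adjusted p of 0.334. The 4 probe sets differed by 0.16 to 0.33, and 0 of the 6 member probe sets were called, against 2.52% of all probe sets. Averaged over both genotypes, a comparison added after the values had been seen, 129 exceeded C57 by 0.36 on 1424108_at (SE 0.09, limma adjusted p 0.0052), by 0.34 on 1436070_at (adjusted p 0.00511) and by 0.41 on 1451240_a_at (adjusted p 0.0101). Those 3 of 6 member probe sets were called there, against 8.13% of all probe sets. Within array set 1 alone 0 were called and the difference on 1424108_at was 0.22 (adjusted p 0.18), and within set 2 alone 1436070_at was called (0.58, adjusted p 0.00554) and 1424108_at differed by 0.50 (adjusted p 0.056).

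Loss of Wfs1 was not followed by a change in any member that passed the test. In C57, KO minus WT was -0.12 to -0.21 on the 4 Glo1 probe sets and -0.02 and -0.09 on the 2 Nnt probe sets tested. In 129 it was -0.05 to 0.14 for Glo1, and -0.01 and -0.16 for Nnt. Each limma adjusted p was 0.999, and 0 of 6 were called in either strain, against 0.105% of all probe sets in C57 and 0.00362% in 129. At an unadjusted p under 0.05 the member counts were 0 as well. The difference between the effects of genotype, C57 minus 129, was -0.17 on 1424108_at (95% interval -0.53 to 0.19), and 0 of 6 were called, against 0.0326% of all probe sets.

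**Figure D2:**
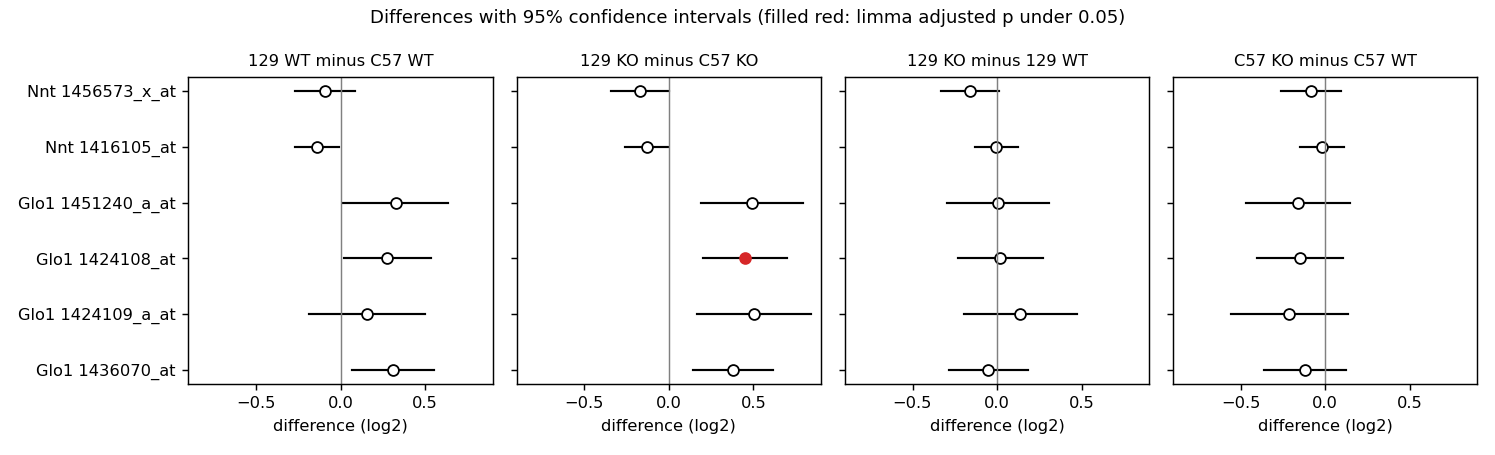
Differences in log2 signal (horizontal axes) for the 6 member probe sets tested, with 95% confidence intervals from limma, for both strain comparisons and both genotype comparisons. The Glo1 differences between strains lie to the right of 0, from 0.16 to 0.50, and the filled red point is Glo1 1424108_at in 129 KO minus C57 KO, the member called there.

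Nnt had a steady signal in both strains, and no C57 array stood low. On 1416105_at the lowest, median and highest signals were 6.32, 6.50 and 6.85 in 129 KO and 6.31, 6.55 and 6.65 in 129 WT. They were 6.50, 6.63 and 6.86 in C57 KO and 6.44, 6.67 and 6.80 in C57 WT. The 5 lowest arrays were all of 129, and 16 of 18 C57 arrays lay within the range of the 129 arrays, with the other 2 above it. The position of these probes in the gene, and so their place relative to the exons that C57BL/6J lacks, was not analysed here.

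The second Nnt probe set, 1456573_x_at, has a suffix that Affymetrix gives where probes can also match other transcripts. Its lowest, median and highest signals were 6.62, 7.00 and 7.14 in 129 KO and 6.94, 7.08 and 7.56 in 129 WT. In C57 KO they were 6.79, 7.26 and 7.42, and in C57 WT 6.93, 7.22 and 7.44. All 18 C57 arrays lay within the range of the 129 arrays. The third, 1432608_at, was dim, at 2.43 to 3.07 in all arrays, and was below the signal filter of 3.60, so it was not tested.

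Nnt means were slightly lower in 129, and none of the differences passed with all 37 arrays as deposited. On 1416105_at the mean was 6.51 ± 0.16 in 129 KO and 6.64 ± 0.13 in C57 KO, a difference of -0.13 (SE 0.06, limma adjusted p 0.363). It was 6.52 ± 0.11 in 129 WT and 6.66 ± 0.12 in C57 WT, a difference of -0.14 (SE 0.06, limma adjusted p 0.331). Over both genotypes it was -0.14 with a limma adjusted p of 0.0537, and that call turned with the setting. It passed in 9 of 37 fits that left out 1 array (129 KO arrays 54 and 59, 129 WT arrays 72 and 79, C57 KO arrays 5, 8 and 17, C57 WT arrays 28 and 29), where the adjusted p over all 37 ran from 0.00992 to 0.0934. It also passed with the 60th percentile filter (0.0474), quantile normalization (0.0276) and array weights (0.0292). On 1456573_x_at the differences were -0.17 in KO and -0.09 in WT, with adjusted p of 0.404 and 0.786. The largest gap among the C57 arrays was 0.09 on 1416105_at and 0.12 on 1456573_x_at. The 3 Nnt probe sets did not move together, with r from -0.30 to 0.07 over the C57 arrays.

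A neighbour of Nnt did show separate levels among C57 arrays. Tmem267, which encodes a transmembrane protein, is the third gene after Nnt in the RefSeq order of chromosome 13. Its probe set 1426607_at had lowest, median and highest signals of 2.46, 2.75 and 3.03 in 129 KO, and 2.63, 2.86 and 3.07 in 129 WT. They were 2.66, 4.66 and 5.34 in C57 KO, and 2.69, 4.74 and 5.25 in C57 WT. Among the C57 arrays a gap of 1.16 lay between 3.18 and 4.34, with 7 arrays below it (2, 8, 17, 26, 28, 29 and 34) and 11 above. The group means were 2.76 ± 0.17 in 129 KO, 2.83 ± 0.14 in 129 WT, 4.14 ± 1.06 in C57 KO and 4.06 ± 1.19 in C57 WT (SD). Both 129 means were below the signal filter of 3.60, and the probe set entered the fit only through C57, so no difference or test between strains is given for it.

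The same 7 arrays were the lowest among C57 arrays on 3 of the 5 probe sets of 4833420G17Rik, the second gene after Nnt. On 1419637_s_at they lay at 6.62 to 6.87 and the other 11 at 7.71 to 8.73, while the 129 arrays had 6.48 to 7.01. This probe set was called in 129 KO against C57 KO (-0.83, limma adjusted p 0.0226), as was 1419636_at (-0.90, adjusted p 0.0385). Probe set 1430220_at of the same gene went the other way in part, with arrays 8, 17, 34, 26 and 28 the highest of the C57 arrays at 5.11, 5.03, 4.84, 4.73 and 4.68. Arrays 2 and 29, also among the 7, had 4.35 and 4.21, on the lower side of its largest gap of 0.19. On this probe set 12 of the 18 C57 arrays lay within the range of 129. Its difference was 0.19 in KO and 0.16 in WT, and neither passed (limma adjusted p 0.669 and 0.747). The fifth, 1431318_at, was dim and had no step. The probe sets of this gene thus did not all show the same step. Paip1, which binds the poly(A)-binding protein in translation and is the gene next to Nnt, had a gap of 1.08 on 1425521_at with C57 arrays 10 and 40 below it. On that probe set 9 C57 arrays (1, 3, 5, 7, 10, 25, 37, 40 and 42) lay below every array of 129, all among the 11 high in Tmem267. On 1441955_s_at the largest gap was 0.24, and the 10 arrays below it were also all among those 11. Gaps were at most 0.09 on 1451740_at, with 4 C57 arrays above the 129 range, and on 1456852_at, with all 18 within it. Emb, Mrps30 and Fgf10, on the other side of Nnt, had gaps of at most 0.08. Besides Tmem267, only 1419637_s_at and 1419636_at of the 11 neighbour probe sets tested were called in 129 KO against C57 KO. Over all probe sets, 3.43% were called there. Tmem267 entered the fit only through C57, so its call carries no weight here. Between the WT groups 0 of 11 were called, against 2.52%. Averaged over both genotypes 4 of 11 were called, 3 lower and 1 higher in 129, against 8.13%. Any call of Tmem267 in that count carries no weight either.

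The C57 arrays low in Tmem267 overlapped in part with those low in Glo1. Of the 4 lowest Glo1 arrays, 2 and 8 were low in both, and arrays 10 and 33 had 4.34 and 5.15 on Tmem267. Of the 10 C57 arrays below the 129 range on Glo1 1424108_at, arrays 2, 8, 17, 26 and 34 were among the 7 low in Tmem267. Nnt itself had no step of that kind, with a largest C57 gap of 0.09 on 1416105_at. On that probe set the 7 arrays low in Tmem267 lay at 6.44 to 6.67 and the other C57 arrays at 6.50 to 6.86. The arrays above the gap (1, 7, 25, 33 and 40) were all high in Tmem267. Whether the signals of Nnt and Tmem267 go together was not tested.

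Genes next to Glo1 on chromosome 17 had no strain difference that passed. Btbd9, Zfand3 and Mdga1 on one side, and Dnah8, Glp1r and Umodl1 on the other, are the 3 measured genes on each side in RefSeq order. The last 3 were below the signal filter on all their probe sets. Among the 10 neighbour probe sets tested, differences between 129 KO and C57 KO were -0.12 to 0.16 and 0 were called, against 3.43% of all probe sets. Their r with Glo1 1451240_a_at over C57 arrays lay between -0.61 (Zfand3 1419954_s_at) and 0.21 (Zfand3 1452274_at). The genes next to Disc1 on chromosome 8 (Tsnax, Egln1 and Exoc8, and Sipa1l2, Map10 and Ntpcr) gave 10 tested probe sets, with differences of -0.14 to 0.06 in KO and -0.07 to 0.13 in WT between 129 and C57. None of the 10 was called, against 3.43% of all probe sets in KO and 2.52% in WT, and the largest gap among their C57 arrays was 0.13.

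Genes farther along the Glo1 chromosome had the pattern most like that of Glo1. Over 37 arrays the 5 genes with the highest r with 1451240_a_at were Zfp945 (0.86), Mmut (0.82), Decr2 (0.81), Hagh (0.81) and Zfp983 (0.80). All 5 lie on chromosome 17, at 83 to 303 protein-coding genes from Glo1. Over the 18 C57 arrays with group means removed, those with the highest absolute r were Zfp983 (0.90), Zfp945 (0.89), Zfp40 (-0.88), H2-Bl (0.88) and Decr2 (0.87). With arrays 33 and 8 left out these 5 kept an absolute r of 0.82 to 0.91. Over the 19 arrays of 129 their r was 0.06 to 0.35.

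Hagh encodes glyoxalase 2, the enzyme after Glo1 in methylglyoxal clearance. Its signal averaged 8.84 ± 0.20 in 129 KO and 8.58 ± 0.19 in C57 KO, and 8.79 ± 0.10 in 129 WT and 8.71 ± 0.20 in C57 WT (SD). The genes ranked over 37 arrays were chosen with the strain means left in, so a strain difference like that of Glo1 was part of the choice, and no test of it is given. Mmut encodes the mitochondrial methylmalonyl-CoA mutase, and Decr2 a peroxisomal enzyme of unsaturated fatty acid breakdown. Decr2 1423495_at had 5.48, 5.95 and 6.37 as lowest, median and highest in 129 KO and 4.57, 5.37 and 5.98 in C57 KO, with 8 C57 arrays below all of 129, each of which was also below on Glo1 1424108_at. Its means were 5.88 in 129 KO and 5.31 in C57 KO, and were closer between the WT groups, at 5.86 in 129 WT and 5.64 in C57 WT. Zfp945, a zinc finger gene, had means of 6.46 in 129 KO and 5.88 in C57 KO, and of 6.46 in 129 WT and 6.21 in C57 WT (1437127_at).

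Of the 50 genes most like Glo1 over C57 arrays, 21 (42%) were on its chromosome, which holds 4.54% of the 13077 genes compared. Over 37 arrays it was 24 of 50 (48%), and over the arrays of 129 it was 1 of 50 (2%). For the brightest Nnt probe set, 1456573_x_at, the same counts were 5 (10%), 2 (4%) and 1 (2%), against 3.31% of genes on its own chromosome. That probe set can match other transcripts and had r = 0.07 with 1416105_at over the C57 arrays, so these counts may not describe Nnt. Along the Glo1 chromosome, an absolute r of at least 0.7 over C57 arrays was reached by 1 of 69 genes within 50 genes of Glo1. It was reached by 6 of 147 at 51 to 150 genes, by 17 of 216 at 151 to 400 and by 0 of 162 beyond, against 0.31% of genes on other chromosomes. All these correlations share the same 18 arrays, including the 4 low ones, so they describe one set of arrays and not separate observations.

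**Figure D3:**
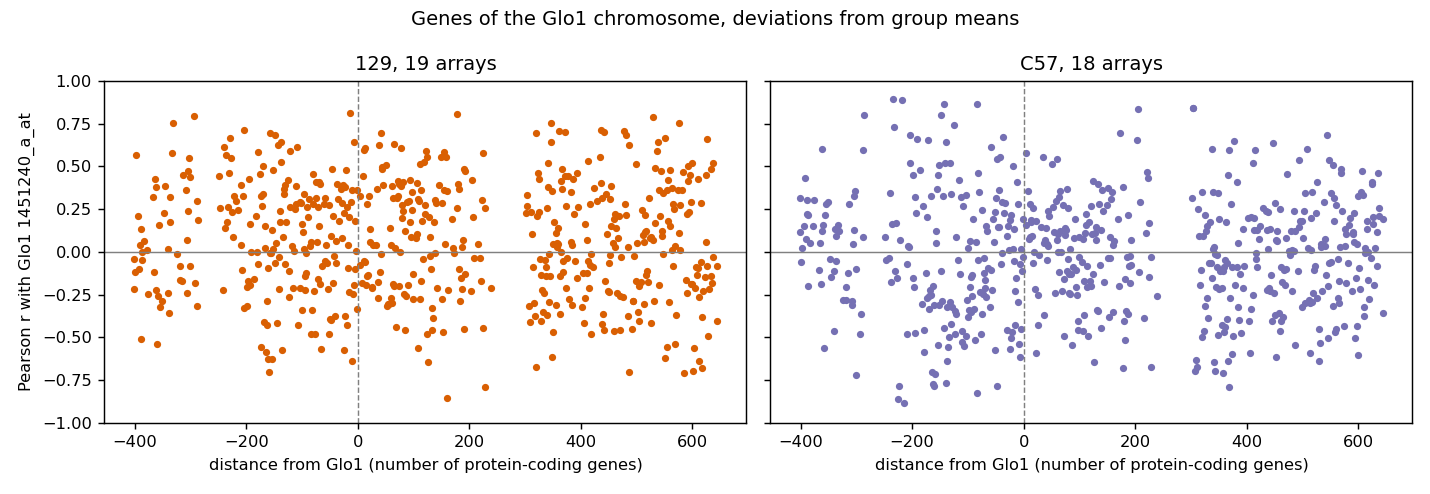
Pearson's r between each tested gene of the Glo1 chromosome and Glo1 1451240_a_at (vertical axes), by distance from Glo1 in protein-coding genes of the RefSeq order (horizontal axes, Glo1 at the dashed line), over 19 arrays of 129 (left) and 18 C57 arrays (right), with group means removed. In C57 the largest positive and negative values, up to 0.90, lie away from Glo1 and not beside it.

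Some probe sets outside the members marked the same arrays more sharply than Glo1 did, and they were chosen after their values had been seen. Probe set 1458719_at, which has no gene symbol in the annotation, had r = 0.98 with Glo1 1451240_a_at over C57 arrays. It lay at 6.30 to 6.66 in all arrays of 129. C57 arrays 3, 5, 9, 25, 28, 29, 37 and 42 lay at 6.36 to 6.62, within that range. Arrays 1, 7, 17, 26, 34 and 40 lay at 5.22 to 5.82, and arrays 2, 10, 8 and 33 at 2.42 to 3.13, with a gap of 2.09 above them. The 10 C57 arrays outside the 129 range were the same 10 as on Glo1 1424108_at.

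Zfp945 1437127_at and 1437128_a_at also had exactly those 10 C57 arrays outside the 129 range, but in opposite directions. On 1437127_at the 10 lay below, with C57 values down to 4.99 against at least 6.19 in 129. On 1437128_a_at they lay above, at 4.39 to 6.75 against at most 3.25 in 129, and the other 8 C57 arrays had 2.60 to 3.10. Among the C57 arrays the 2 probe sets of this gene thus disagreed in direction, and neither stands for the level of Zfp945 alone.

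**Figure D4:**
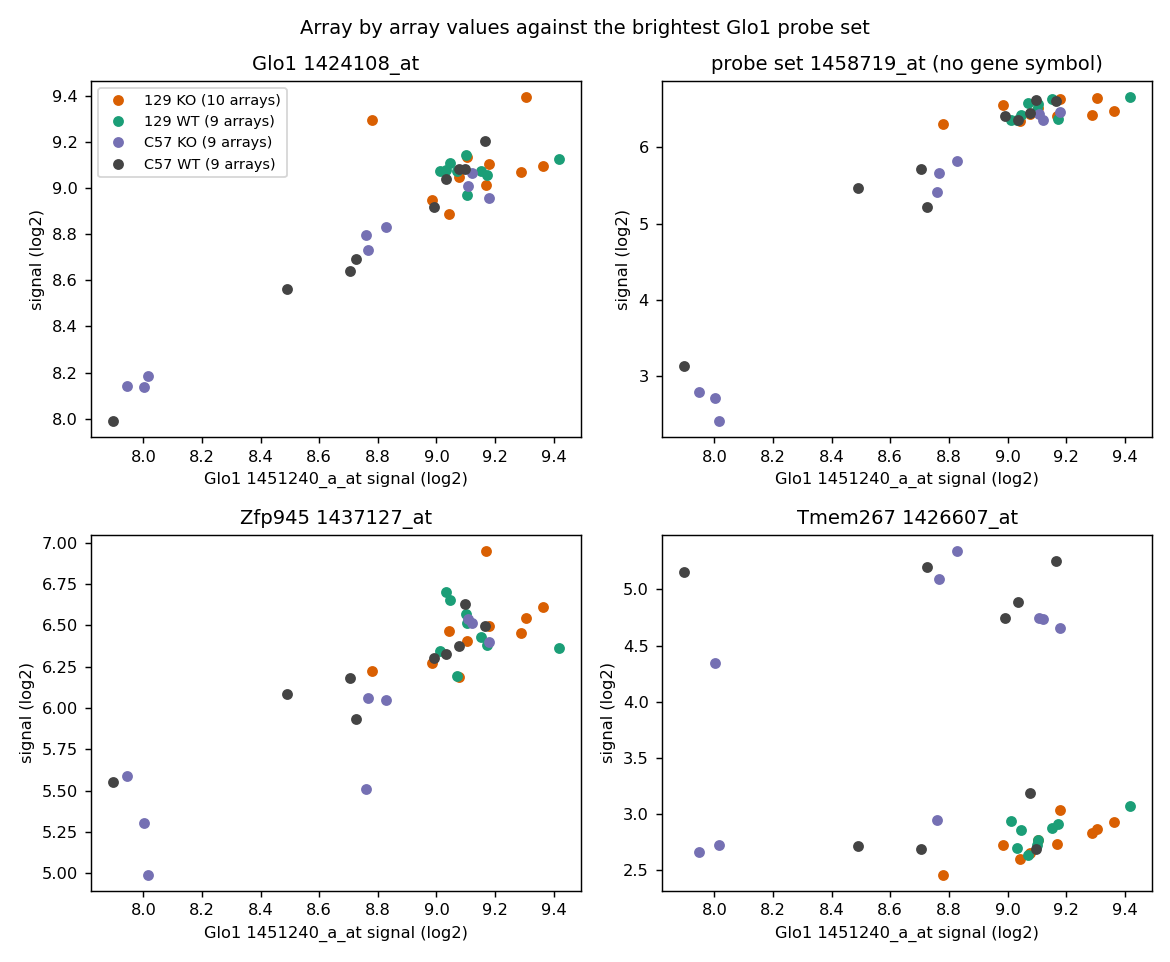
Log2 signal of Glo1 1424108_at, the unnamed probe set 1458719_at, Zfp945 1437127_at and Tmem267 1426607_at (vertical axes) against Glo1 1451240_a_at (horizontal axes), 1 point an array, coloured by group. In the first 3 panels 4 C57 arrays sit at the lower left, at 7.90 to 8.02 on the horizontal axis, and the 129 arrays at the upper right, while the Tmem267 panel shows C57 arrays at 2.66 to 3.18 and at 4.34 to 5.34 over much the same range of Glo1.

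The lists around each member's function give 1 brightest probe set a gene, and the genes called between strains are named beside the share over all genes. The lists are small, so their counts are not read as few or many. Of 15 measured genes for mitochondrial NADPH and redox defence, the setting in which Nnt works, Me3, a mitochondrial malic enzyme that makes NADPH, was higher in 129 in KO (0.52, limma adjusted p 0.00231) and in WT (0.57, adjusted p 0.00126). Mthfd2l, a mitochondrial folate enzyme, was lower in 129 KO than in C57 KO (-0.38, adjusted p 0.0301), and was at -0.20 in WT (adjusted p 0.487). The median difference of the list was -0.01 in KO and 0.01 in WT, beside -0.01 and 0.02 over all genes tested. Of all genes, 2.99% were called in KO and 2.09% in WT.

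Of 10 measured genes for glyoxal detoxification and glutathione synthesis, 0 were called between strains, and the median difference was 0.02 in KO and 0.01 in WT. Of 21 measured partners of the Disc1 protein, Pcm1, which organises material around the centrosome, was lower in 129 in KO (-0.24, limma adjusted p 0.0445) and in WT (-0.31, adjusted p 0.0117). The list's median difference was -0.01 in KO and 0.00 in WT. For both lists the share of all genes called between strains was 2.99% in KO and 2.09% in WT. In none of the 3 lists was a gene called between KO and WT in either strain, where 0.0994% of all genes were called in C57 and 0.00765% in 129.

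Other genes known for variants in C57 substrains or 129 gave no strain difference that passed. Of 11 such genes, 9 were named alone by a probe set and 6 were tested: Gabra2, a GABA receptor subunit, Crb1, a cell polarity gene, Cyfip2, a regulator of actin assembly, Wdfy1, Ide, the insulin-degrading enzyme, and Dock2, a Rac activator. Their differences between 129 KO and C57 KO were 0.00 to 0.06, and those between the WT groups were -0.06 to 0.22, with 0 called. Of all genes tested, 2.99% were called in KO and 2.09% in WT, so 0 among 6 says little about these genes. Gabra2 1455444_at averaged 8.35 ± 0.25 in 129 KO, 8.43 ± 0.11 in 129 WT, 8.31 ± 0.19 in C57 KO and 8.31 ± 0.13 in C57 WT. Cyfip2 1428347_at averaged 10.44 in 129 KO and 10.40 in C57 KO, a difference of 0.04 (limma adjusted p 0.89). Mmrn1, Nlrp12 and Casp4 were below the signal filter, with group means of 2.18 to 2.42. A signal level does not show a variant that leaves the transcript level as it is.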

How the data were processed

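The authors deposited log2 probe set values, already normalized between arrays (array medians 4.30 to 4.36). The submitters' processing notes name MAS5 and GCRMA without role, and the versions, as well as the genome build, are not given in the sources used here. Values were used as deposited. Probe sets were named from the platform annotation: of 45037 that are not controls, 34945 had 1 symbol, 932 several and 9160 none. Gene order came from the RefSeq table. The 27647 probe sets whose mean reached the 40th percentile (log2 3.60) in at least 1 group were tested by limma 3.58.1 in R 4.3.3. The model fitted a mean for each group over 37 arrays and was 2-sided, with Benjamini-Hochberg adjustment over all of them at 0.05. Python 3.11.15, pandas 2.3.3, NumPy 2.4.6 and matplotlib 3.10.9 drew the figures.

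Array sets came from the sign of the first residual principal component (43.7%) of the 500 most variable probe sets. Genes most like a member had the highest Pearson r among genes tested (the highest absolute r within a strain). Neighbours were the 3 measured genes on each side. List members were named where called, and of the other variant genes those with a probe set of their own were named. The members and lists were chosen with earlier results of these data known. On simulated data with these group sizes, shifts of 0.5 were recovered in 86% of cases in 129 WT minus C57 WT and 89% in 129 KO minus C57 KO. The simulated noise was normal with the same SD in all groups, and the shifted probe sets were drawn at random. These rates are thus not the power for Glo1, whose SD differed between strains. Arrays give no counts, so their number limits the precision.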

Additional observations from a re-analysis of the deposited data

Results flagged for a closer look

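Of 32 groups of member and Wfs1 values tested for a lone extreme array by Dixon's ratio, 5 had one, where chance gives about 1 in 20. Glo1 1424108_at was lowest in 129 WT array 74, at 8.97, with the nearest array at 9.06. Glo1 1436070_at was lowest in 129 KO array 59, at 7.27, with the nearest at 7.53. Glo1 1451240_a_at was highest in 129 WT array 73, at 9.42, with the nearest at 9.17. Nnt 1456573_x_at was highest in the same 129 WT array 73, at 7.56, with the nearest at 7.23, and that array also had the highest actin difference (2.76). Wfs1 1448411_at was highest in C57 WT array 42, at 9.73, with the nearest at 9.38. No C57 array was singled out in this way for Glo1 or Nnt.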

How the results depend on the processing

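No paired analysis was possible because the groups share no sample numbers. The count of members called in 129 KO against C57 KO was 1. It was 0 with 1 brightest probe set per gene, with array weights, with only the groups compared, and in array set 1 or 2 alone. It was 3 with array set as a block and 2 with the actin difference as a covariate. With 1 array left out it was 0 to 4. On Glo1 1424108_at the limma adjusted p there was 0.107 with array weights, 0.0555 with only the groups compared, 0.117 in set 1 and 0.397 in set 2. For 129 against C57 over both genotypes the count was 3, against 1 with 1 probe set per gene, 5 with array weights, 0 in set 1, 1 in set 2, and 3 to 5 with 1 array left out. The causes were not tested. The alternatives with other filters, quantile normalization, median centring and eBayes with trend and robust kept both counts within 1.5 times. The other 4 comparisons had 0 members called under every alternative run, and 0 members had separate levels under the 5 alternatives to that rule. No member changed sign with a call. Over all probe sets, the calls were 949 in 129 KO against C57 KO (103 to 1144 over the alternatives), 697 in 129 WT against C57 WT (182 to 1584), 2249 over both genotypes (890 to 3257), 29 in C57 KO against C57 WT (9 to 36), 1 in 129 KO against 129 WT (1 in each) and 9 for the difference of KO effects (1 to 13). The dim Nnt probe set 1432608_at limits what can be said of it.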
